A study of Homo sapiens with 11 samples.

Results

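The 9 keratin genes described here were measured across 11 RNA-seq libraries of cancer cell lines: KRT7, KRT8, KRT80, KRT81 and KRT86, which encode type II keratins, and KRT15, KRT17, KRT18 and KRT19, which encode type I keratins. These 9 are among 55 keratin genes and 23228 genes in the count tables, and each was found by its symbol. They were picked because several had lower counts with etoposide than with DMSO, so their etoposide values are given as a description with no test. All 9 passed the filter on low counts, so no member is missing from the comparisons.

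MDA-MB231 is an established line from a breast cancer, labelled basal, and U2OS comes from a bone tumour, an osteosarcoma, which is not epithelial. Cells of both lines received 1 µM doxorubicin, 20 µM etoposide, 0.2 µM paclitaxel or 40 µg/mL methyl methanesulfonate (MMS), each for 8 h, or the vehicle DMSO. Doxorubicin and etoposide poison topoisomerase II, MMS alkylates DNA and paclitaxel stabilises microtubules. Each drug has 1 library per line. U2OS has 1 DMSO library, and MDA-MB231 has 2. The first MDA-MB231 DMSO library pairs by its title with doxorubicin, etoposide and paclitaxel. The second pairs with MMS, and its description calls it untreated although its treatment label is DMSO. With 1 library per line and drug, the 2 lines serve as the replicates of a drug, and nothing in the labels says how many cultures or harvests the libraries came from, so p-values measure only the spread between these libraries.

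Keratins are the intermediate filament proteins of epithelial cells. A type I (acidic) chain pairs with a type II (basic) chain, and the pairs assemble into filaments that run from the nucleus to desmosomes and hemidesmosomes and carry mechanical load. KRT8 and KRT18 are the founding pair of simple epithelia, KRT7 and KRT19 accompany them in glandular and ductal cells, KRT15 and KRT17 belong to basal, stratified or wounded epithelium, and KRT81 and KRT86 are hair keratins. Lines of mesenchymal origin can also carry simple keratin transcripts.

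Of the drugs, etoposide went with the lowest keratin counts. In a fit over both lines (edgeR), the etoposide log2 fold change against DMSO was below 0 for 9 of the 9 genes and 2-fold or more lower for 7, where 9.04% of all genes tested were that low. The genes were picked on this contrast, so the share is not a result. The fitted value is a mean over the lines. In MDA-MB231 alone, the etoposide log2 ratios to DMSO of KRT17 (0.53) and KRT15 (0.06) were above 0, both at low counts. KRT19 had 4 reads under DMSO and 1 under etoposide in U2OS, so its fitted value rests on MDA-MB231. With doxorubicin, KRT18, KRT19 and KRT80 fell, so 3 of 9 were called lower and 0 higher at an adjusted p under 0.05, against 42.5% of all genes called either way, 21.9% higher and 20.6% lower. With MMS, KRT7, KRT18 and KRT80 fell, 3 of 9 called lower and 0 higher, against 10.4% called either way, 5.23% higher and 5.16% lower. With paclitaxel 0 of 9 were called, as were 0% of all genes, and 0 of the 9 and 110 of 15888 genes had an unadjusted p under 0.05 in edgeR. DESeq2 and limma-voom also called 0 of the 9 under paclitaxel. The 3 of 9 under doxorubicin is near the share of all genes called. The doxorubicin and paclitaxel comparisons use the same DMSO libraries as etoposide, and the U2OS DMSO library also serves MMS, so these comparisons are not independent of each other. In bulk RNA, fewer cells of a type and less RNA per cell cannot be told apart.

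Between 16774156 and 31588683 reads per library were assigned to genes. The 2 MDA-MB231 DMSO libraries differed beyond sampling noise, with a chi-square per degree of freedom of 26.7 over 14072 genes. The median absolute log2 difference between them was 0.18 over the 10826 genes with a CPM (a gene's count scaled to the size of its library) of 5 or more, and 0.29 over the keratins of that level. The marker genes only partly separated the lines. The basal markers VIM (604 to 2660 CPM in MDA-MB231, 597 to 2700 CPM in U2OS), CD44 (702 to 1870 and 278 to 1300 CPM) and EGFR (90 to 516 and 49.5 to 112 CPM) were present in both, while in MDA-MB231 the basal keratins KRT5 and KRT14 reached at most 0.374 and 0.401 CPM and the hormone receptor gene ESR1 at most 0.327 CPM. Of the osteoblast markers, COL1A1 was higher in U2OS (48 to 65 CPM against 4.3 to 28 CPM in MDA-MB231), RUNX2 overlapped (2.03 to 23.9 against 5.34 to 37.5 CPM), CDH11 was lower in U2OS (2.5 to 26.2 against 98.1 to 370 CPM), and SP7, BGLAP and IBSP reached at most 0.635, 0.0977 and 0.0541 CPM in U2OS. The 9 blood and immune markers summed to 15.3 to 55 CPM in U2OS and 97.4 to 236 CPM in MDA-MB231, with HBB at 0 in every library of both lines. The basal marker sum, which includes KRT17, was 3450 CPM under DMSO and 1290 CPM under etoposide in U2OS, and 4500 and 1600 CPM in MDA-MB231. With etoposide 0 of the 9 tested basal markers were called higher and 3 lower, where 7.97% and 9.23% of all genes were. The luminal sum, which includes KRT8, KRT18 and KRT19, was 1120 and 423 CPM in U2OS and 778 and 471 CPM in MDA-MB231. Those keratins make up most of it. In U2OS, KRT8 and KRT18 were at 550 and 409 CPM under DMSO and 171 and 106 CPM under etoposide. In MDA-MB231, KRT8, KRT18 and KRT19 were at 225, 202 and 167 CPM and at 149, 70.9 and 70.5 CPM. They were picked on etoposide, so the fall of the luminal sum is not a separate result. The osteoblast sum was 1050 and 691 CPM, and 366 and 173 CPM. The blood and immune sum was higher with etoposide, 21.9 and 28.8 CPM in U2OS and 134 and 180 CPM in MDA-MB231. The part of these sums in the keratin values was not tested.

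To compare levels between genes, CPM was divided by transcript length. In the U2OS DMSO library, KRT17 was highest at 336 CPM per kb, followed by KRT8 at 313, KRT81 at 312, KRT18 at 288, KRT7 at 159 and KRT80 at 97.4 CPM per kb. KRT15 (3.44), KRT86 (1.67) and KRT19 (0.147 CPM per kb) were far lower. With a single DMSO library, the spread behind this order is not known. In the 2 MDA-MB231 DMSO libraries the order began with KRT7 (153 and 189 CPM per kb), KRT18 (142 and 173), KRT8 (128 and 153), KRT19 (120 and 95.1) and KRT81 (78.8 and 96.4), with KRT80 at 33.3 and 37.5 CPM per kb. The ranges of KRT7 and KRT18, of KRT18 and KRT8, and of KRT19 and KRT81 overlap there. Within each of the 2 libraries KRT7 was above KRT18 and KRT18 above KRT8, while KRT19 and KRT81 changed places between them. KRT86 (5.57 and 4.42), KRT15 (1.74 and 1.07) and KRT17 (0.752 and 2.51 CPM per kb) were the lowest. The lines therefore shared KRT7, KRT8, KRT18, KRT80 and KRT81 as abundant keratin transcripts and differed in KRT17 and KRT19.

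**Figure D1:**
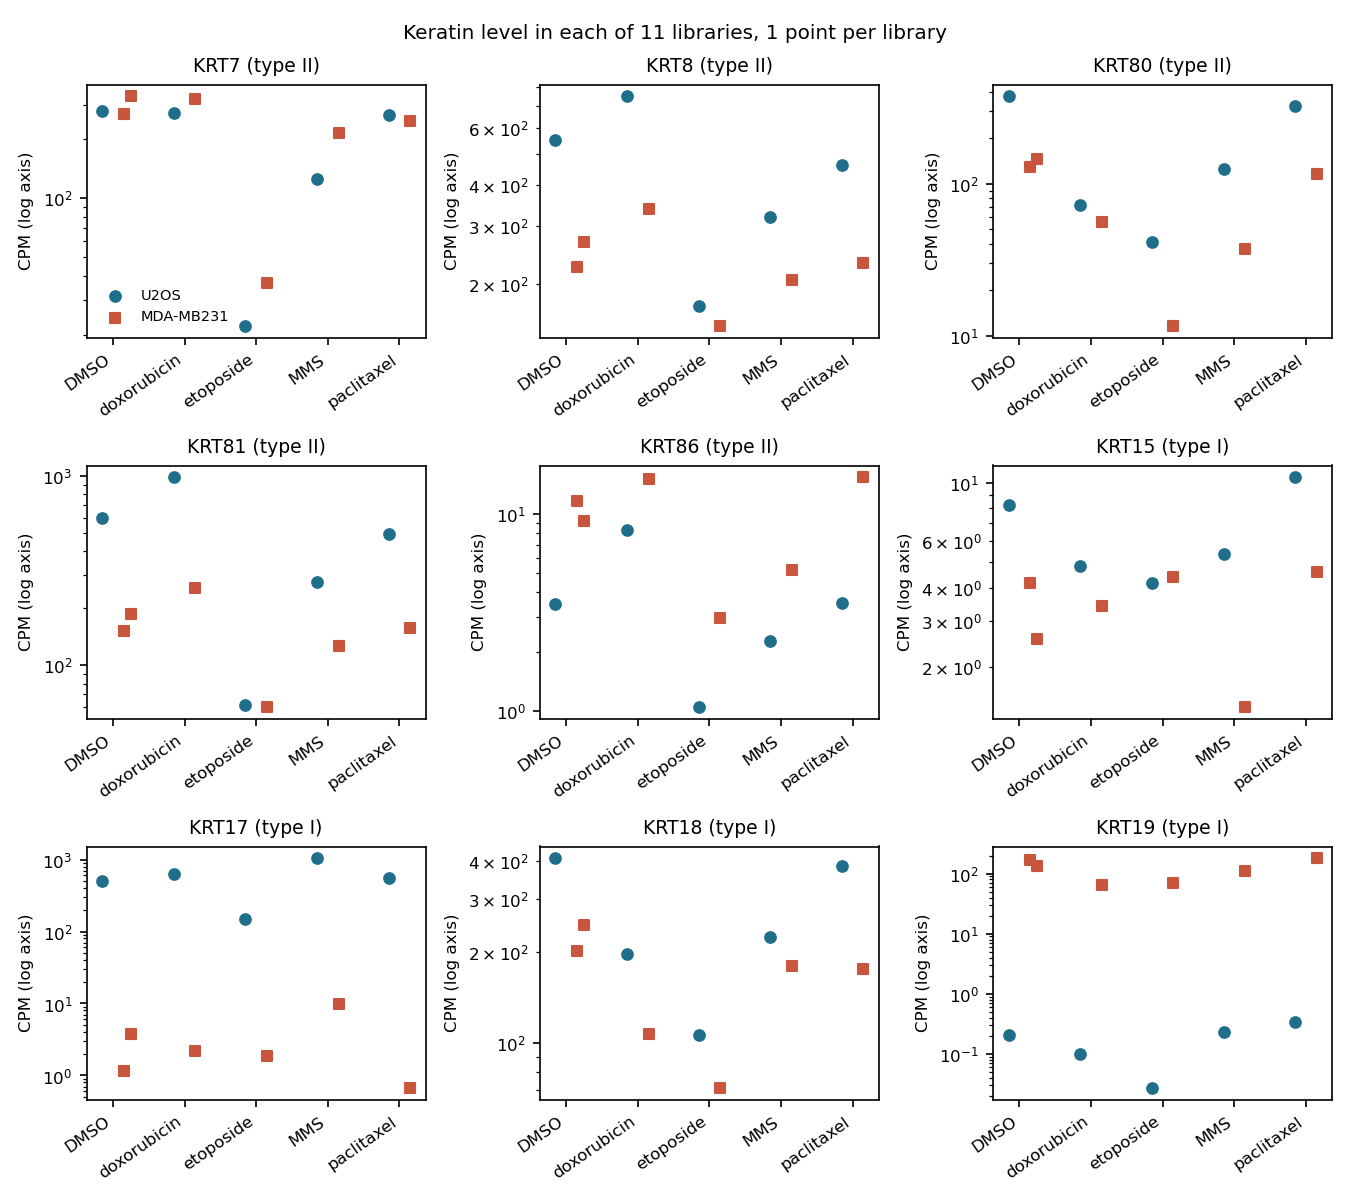
CPM of each of the 9 keratin genes (vertical log axis) by treatment (horizontal axis), 1 point per library, with circles for the 5 U2OS libraries and squares for the 6 MDA-MB231 libraries. KRT7, KRT18, KRT80 and KRT81 are lowest with etoposide in both lines, KRT17 is above 100 CPM in U2OS alone and KRT19 is above 60 CPM in MDA-MB231 alone.

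KRT7, a type II keratin of glandular and ductal epithelium, was far lower with etoposide in both lines and moderately lower with MMS. In U2OS its level was 279 CPM under DMSO, 272 under doxorubicin, 22.2 under etoposide, 125 under MMS and 264 under paclitaxel. In MDA-MB231 it was 268 CPM under DMSO, 321 under doxorubicin, 37 under etoposide and 246 under paclitaxel, and 332 CPM in the second DMSO library against 215 under MMS. The etoposide libraries lie below all others, and the doxorubicin and paclitaxel libraries lie near DMSO in both lines. The ratio to DMSO with etoposide was 12.6-fold lower in U2OS (821 reads against 5453) and 7.22-fold lower in MDA-MB231 (1151 against 6802). Over both lines KRT7 fell with MMS (log2 fold change -0.85 ± 0.21 SE, adjusted p = 0.0358), and its doxorubicin change was 0.16 ± 0.20 (adjusted p = 0.554), or -0.06 when libraries were scaled by total counts. The MMS call was lost with a block for line alone (adjusted p = 0.0619), with MMS and its DMSO libraries only (0.0509), and on leaving out the U2OS DMSO (adjusted p = 0.144), U2OS MMS (0.683), first MDA-MB231 DMSO (0.0714), second MDA-MB231 DMSO (0.0645) or MDA-MB231 MMS (0.0642) library. Doxorubicin and MMS differed for KRT7 by 1.01 ± 0.25 on the log2 scale (adjusted p = 0.0105), a difference no longer called without the U2OS MMS library (0.72, adjusted p = 0.237).

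KRT8 and KRT18, partners in the filaments of simple epithelia, moved apart with doxorubicin. In U2OS, KRT8 was at 550 CPM under DMSO, 749 under doxorubicin, 171 under etoposide, 321 under MMS and 461 under paclitaxel. In MDA-MB231, KRT8 was at 225 CPM under DMSO, 340 under doxorubicin, 149 under etoposide and 232 under paclitaxel, and at 268 CPM in the second DMSO library against 206 under MMS. KRT8 was thus highest with doxorubicin and lowest with etoposide in each line. KRT18 in U2OS was at 409 CPM under DMSO, 197 under doxorubicin, 106 under etoposide, 224 under MMS and 385 under paclitaxel. In MDA-MB231, KRT18 was at 202 CPM under DMSO, 107 under doxorubicin, 70.9 under etoposide and 176 under paclitaxel, and at 245 CPM in the second DMSO library against 179 under MMS. Unlike KRT8, KRT18 was below DMSO with doxorubicin in both lines. KRT18 fell with doxorubicin (log2 fold change -0.94 ± 0.17 SE, adjusted p = 0.00249), a call that held in all 19 alternatives. KRT8 changed by 0.54 ± 0.23 under doxorubicin (adjusted p = 0.0816), which passed on leaving out either etoposide library (0.55, adjusted p = 0.0154 without U2OS etoposide and 0.0153 without MDA-MB231 etoposide). With MMS, KRT18 fell by 0.65 on the log2 scale (SE 0.16, adjusted p = 0.0402) and KRT8 changed by -0.50 ± 0.23 (adjusted p = 0.178).

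The KRT18 call with MMS was lost with a block for line alone (adjusted p = 0.0951), with MMS and its DMSO libraries only (0.0814), and on leaving out the U2OS DMSO (adjusted p = 0.173), U2OS MMS (0.705), U2OS paclitaxel (0.0666), MDA-MB231 paclitaxel (0.0659), first MDA-MB231 DMSO (0.0955), second MDA-MB231 DMSO (0.0611) or MDA-MB231 MMS (0.0609) library. The KRT8 change with MMS passed without the U2OS etoposide (-0.56, adjusted p = 0.0485) or MDA-MB231 etoposide (adjusted p = 0.0484) library. Doxorubicin against MMS set KRT8 apart by 1.04 ± 0.27 (adjusted p = 0.0136) and KRT18 by -0.29 ± 0.19 (adjusted p = 0.263; -0.54, adjusted p = 0.042, when scaled by total counts). For KRT8 that difference was no longer called without the U2OS MMS (adjusted p = 0.218) or U2OS doxorubicin (adjusted p = 0.0832) library.

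Per kb of transcript, the ratio of KRT8 to KRT18 was 1.09 in U2OS and 0.901 and 0.884 in MDA-MB231 under DMSO. It was 3.08 under doxorubicin in U2OS and 2.57 in MDA-MB231. With etoposide it was 1.31 and 1.70, with MMS 1.16 and 0.931, and with paclitaxel 0.968 and 1.07, U2OS first. The doxorubicin libraries lie above the other 9 in this ratio, with no overlap. In the RefSeq table of GRCh38 the 2 genes neighbour and overlap each other on chromosome 12, and 23.8% of the 50-base windows of the KRT18 transcript also occur in a transcript annotated to KRT8 on either strand. In all, 52.5% of KRT18 windows and 39.7% of KRT8 windows occur in another gene, among them the annotated pseudogenes KRT18P11 and KRT8P3. Reads that align to several places or fall in overlapping genes are not in the gene counts, so the levels of both genes, and the ratio, are uncertain.

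**Figure D2:**
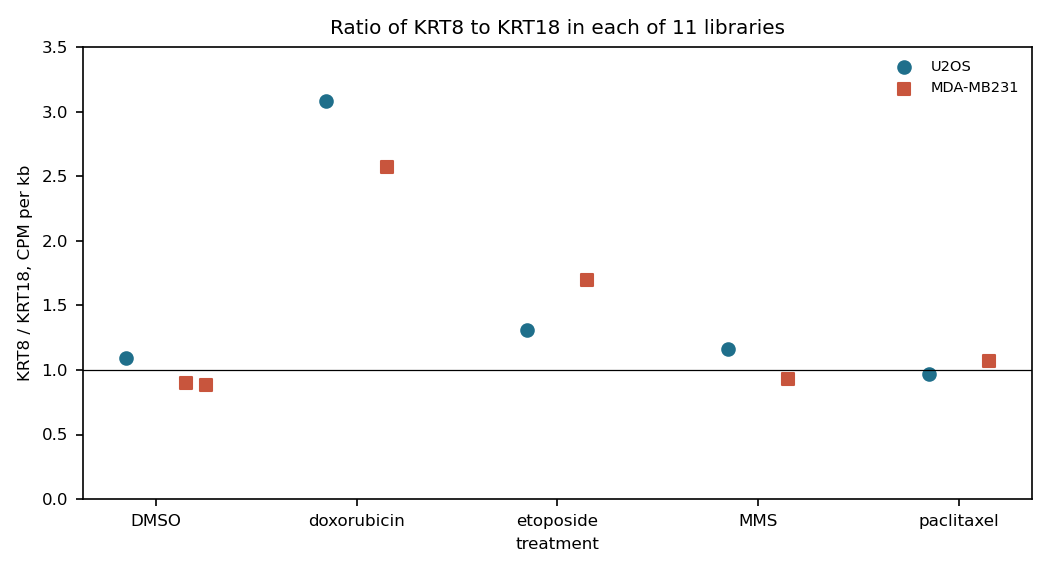
Ratio of KRT8 to KRT18, each as CPM per kb of transcript (vertical axis), by treatment (horizontal axis), 1 point per library, circles U2OS and squares MDA-MB231; the line marks a ratio of 1. The doxorubicin libraries stand at 3.08 and 2.57, and the DMSO libraries lie between 0.884 and 1.09.

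KRT80, an epithelial keratin of type II, was lower with all 3 DNA-damaging drugs in both lines. In U2OS it stood at 376 CPM under DMSO, 71.9 under doxorubicin, 41.4 under etoposide, 124 under MMS and 324 under paclitaxel. In MDA-MB231 it stood at 129 CPM under DMSO, 56.1 under doxorubicin, 11.6 under etoposide and 116 under paclitaxel, and at 145 CPM in the second DMSO library against 37.4 under MMS. Within each line the doxorubicin, etoposide and MMS libraries lie below the DMSO and paclitaxel libraries with no overlap. KRT80 fell with doxorubicin (log2 fold change -1.79 ± 0.31 SE, adjusted p = 0.0023), which held in all 19 alternatives (-1.13 without the U2OS doxorubicin library, -2.55 without the MDA-MB231 doxorubicin library), and with MMS (-1.69 ± 0.30, adjusted p = 0.0144). The MMS call was lost without the U2OS DMSO (adjusted p = 0.0589), U2OS MMS (0.325), second MDA-MB231 DMSO (0.0737) or MDA-MB231 MMS (0.0748) library. Etoposide showed the lowest fitted value of the 9 genes for KRT80, -3.37 ± 0.33, with 9.07-fold fewer CPM in U2OS and 11-fold fewer in MDA-MB231. The order of the drugs differed between the lines: doxorubicin was 5.23-fold lower than DMSO in U2OS and 2.29-fold lower in MDA-MB231, while MMS was 3.03-fold and 3.87-fold lower. Doxorubicin and MMS did not differ by a called amount for KRT80 over both lines (-0.10 ± 0.35, adjusted p = 0.841); that difference was -0.80 and called without the MDA-MB231 doxorubicin library (adjusted p = 0.0145) and turned to 0.62 without the U2OS doxorubicin library. Of the 9 transcripts KRT80 shares least with other genes, 0.42% of its windows, so reads that align to several places bear least on its counts.

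KRT81 and KRT86, type II hair keratins, are near-identical neighbours on chromosome 12 whose gene spans overlap in the RefSeq table. Their coding sequences are 94.2% identical (GENCODE 29 transcripts), and 38.4% of the 50-base windows of KRT81 occur in KRT86, so reads can be dropped or assigned to the wrong copy and both genes are uncertain. Coding bases 61 to 180 are shown because no read within them could tell the genes apart, and bases 1207 to 1326 because they hold the most differences of any 120 bases, 19, set in capitals.
KRT81 and KRT86, 61 to 180: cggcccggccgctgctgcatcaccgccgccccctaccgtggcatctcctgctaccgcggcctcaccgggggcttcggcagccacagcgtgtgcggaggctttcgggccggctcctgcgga
KRT81, 1207 to 1326: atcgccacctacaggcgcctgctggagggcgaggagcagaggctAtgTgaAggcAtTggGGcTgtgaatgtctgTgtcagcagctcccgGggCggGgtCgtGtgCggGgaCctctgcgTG
KRT86, 1207 to 1326: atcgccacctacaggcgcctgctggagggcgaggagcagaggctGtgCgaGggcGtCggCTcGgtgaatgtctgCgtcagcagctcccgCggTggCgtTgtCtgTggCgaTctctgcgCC

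KRT81 was above DMSO with doxorubicin and below it with etoposide and MMS in both lines. In U2OS, KRT81 was at 601 CPM under DMSO, 987 under doxorubicin, 61.3 under etoposide, 276 under MMS and 495 under paclitaxel. In MDA-MB231, KRT81 was at 152 CPM under DMSO, 256 under doxorubicin, 60.1 under etoposide and 158 under paclitaxel, and at 186 CPM in the second DMSO library against 126 under MMS. With etoposide the 2 lines reached nearly the same level from DMSO levels far apart, 9.81-fold lower than DMSO in U2OS and 2.53-fold lower in MDA-MB231. KRT86 in U2OS was at 3.48 CPM under DMSO, 8.30 under doxorubicin, 1.05 under etoposide, 2.26 under MMS and 3.52 under paclitaxel. In MDA-MB231, KRT86 was at 11.6 CPM under DMSO, 15.1 under doxorubicin, 2.96 under etoposide and 15.4 under paclitaxel, and at 9.25 CPM in the second DMSO library against 5.18 under MMS. KRT86 was thus lowest with etoposide in both lines and highest with doxorubicin in U2OS, while in MDA-MB231 doxorubicin and paclitaxel lay close together above DMSO. Neither gene passed the test with doxorubicin (KRT81 0.77 ± 0.38, adjusted p = 0.13; KRT86 0.82 ± 0.33, adjusted p = 0.0716) or with MMS (-0.73 ± 0.38, adjusted p = 0.241; -0.78 ± 0.33, adjusted p = 0.162). KRT81 passed with doxorubicin when either etoposide library was left out (0.79, adjusted p = 0.00663 without U2OS etoposide and 0.00659 without MDA-MB231 etoposide), and with doxorubicin and its DMSO libraries only (0.73, adjusted p = 0.022). KRT86 passed without the MDA-MB231 doxorubicin library (1.16, adjusted p = 0.0289) and with a block for line alone (0.89, adjusted p = 0.0463). With MMS, KRT81 passed without either etoposide library (-0.83, adjusted p = 0.0273 in each case). The number of KRT81 reads per KRT86 read was 58.2 to 173 in U2OS and 10.3 to 24.4 in MDA-MB231, ranges that do not overlap.

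Doxorubicin and MMS were also compared with each other. KRT7, KRT8, KRT81 (1.51 ± 0.46, adjusted p = 0.027) and KRT86 (1.60 ± 0.39, adjusted p = 0.0106) were higher and KRT19 lower with doxorubicin, so 5 of 9 were called, against 42.6% of all genes tested, 22.3% higher and 20.4% lower. The keratins' share is near that background. KRT81 was no longer called without the U2OS doxorubicin (adjusted p = 0.229), U2OS MMS (0.301), first MDA-MB231 DMSO (0.0553), second MDA-MB231 DMSO (0.0719) or MDA-MB231 MMS (0.0648) library, or with no filter on low counts (0.107). KRT86 was no longer called without the U2OS doxorubicin (0.0731) or U2OS MMS (0.121) library. The median of all genes was 0.18 in this comparison and -0.07 when libraries were scaled by total counts; KRT7, KRT8, KRT81 and KRT86 stayed above 0 in all 18 alternatives. Against paclitaxel, doxorubicin was lower for KRT18 (-0.85 ± 0.17, adjusted p = 0.00499), KRT19 (-1.54 ± 0.29, adjusted p = 0.00337) and KRT80 (-1.54 ± 0.31, adjusted p = 0.00501; -0.91 without the U2OS doxorubicin and -2.33 without the MDA-MB231 doxorubicin library), 3 of 9 against 40.2% of all genes, 20.2% higher and 20.1% lower. KRT18 lost that call without the U2OS paclitaxel library (-0.68, adjusted p = 0.0685) and KRT19 without the MDA-MB231 doxorubicin library (-1.45, adjusted p = 0.218). Without the U2OS etoposide or MDA-MB231 etoposide library, KRT8 (0.62, adjusted p = 0.013 and 0.0128) and KRT81 (0.84, adjusted p = 0.00717 and 0.00708) were also called, higher with doxorubicin; KRT8 was called too with DESeq2 (0.66, adjusted p = 0.0394), limma-voom (0.63, adjusted p = 0.048) and a stricter CPM filter (0.68, adjusted p = 0.0494). MMS against paclitaxel called KRT80 alone, lower by -1.44 ± 0.34 (adjusted p = 0.0413), 1 of 9 against 7.26% of all genes, 3.85% lower, and leaving out any of the 11 libraries but U2OS doxorubicin and MDA-MB231 doxorubicin ended that call, with adjusted p from 0.0513 without MDA-MB231 etoposide to 0.689 without U2OS MMS. KRT7 was called in that comparison without U2OS etoposide (-0.86, adjusted p = 0.0465) or MDA-MB231 etoposide (adjusted p = 0.0464), and with DESeq2 (-0.79, adjusted p = 0.0303) and limma-voom (-0.81, adjusted p = 0.048).

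**Figure D3:**
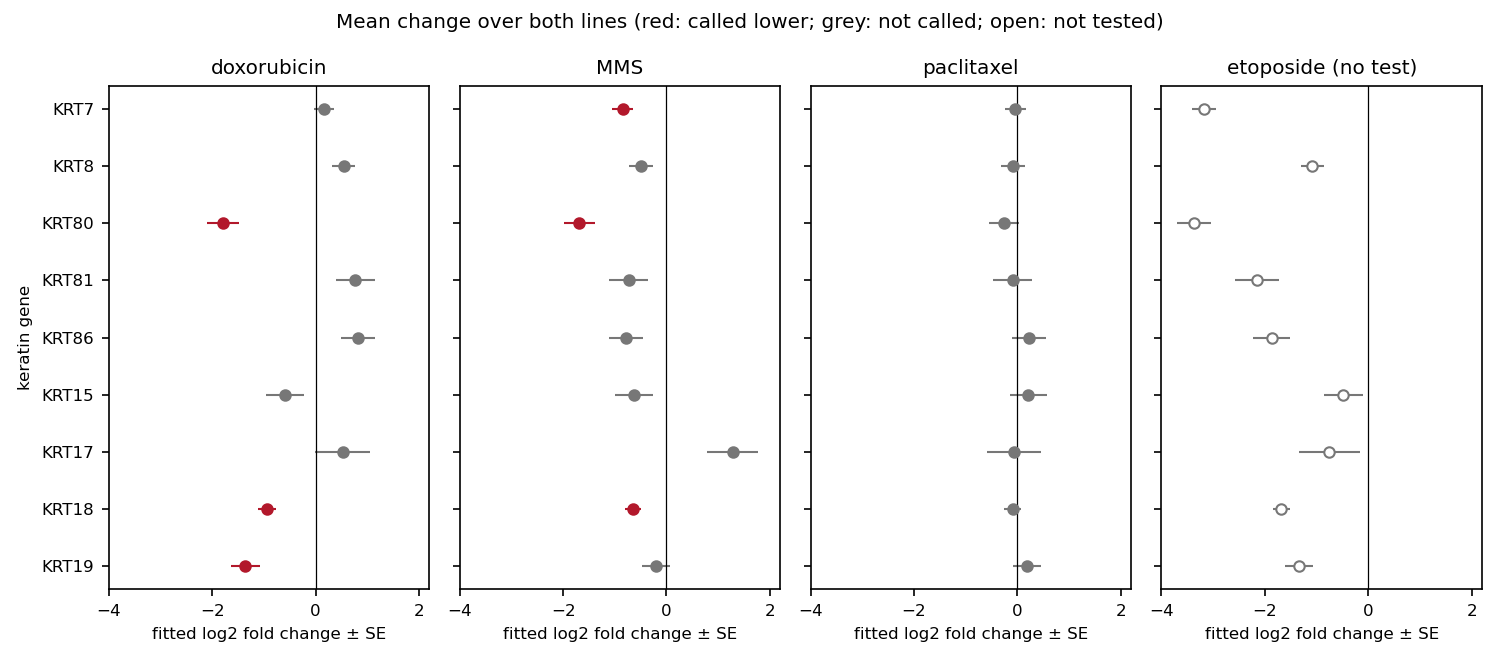
Fitted log2 fold change against DMSO over both lines (horizontal axis, bars ± SE) for the 9 keratin genes (vertical axis), 1 panel per drug. KRT80 and KRT18 are called lower (red) with doxorubicin and MMS, KRT19 under doxorubicin and KRT7 under MMS, no gene is called with paclitaxel, and the open etoposide points were not tested because the genes were picked on them.

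KRT17, a type I keratin induced in wounded and stressed epithelium, was abundant in U2OS and near the detection limit in MDA-MB231. In U2OS it was at 510 CPM under DMSO, 635 under doxorubicin, 147 under etoposide, 1050 under MMS and 548 under paclitaxel. In MDA-MB231 it was at 1.14 CPM under DMSO, 2.2 under doxorubicin, 1.87 under etoposide and 0.669 under paclitaxel, and at 3.81 CPM in the second DMSO library against 9.84 under MMS. KRT17 was highest with MMS in both lines, while etoposide was below DMSO in U2OS and above it in MDA-MB231. The MMS ratio was 2.06-fold in U2OS (26958 reads against 9956) and 2.58-fold in MDA-MB231 (245 against 61). Over both lines the MMS change was 1.28 ± 0.49 SE (adjusted p = 0.125, unadjusted p = 0.0284) and was not called; it was called without either etoposide library (1.17, adjusted p = 0.0356 in each case), with limma-voom (1.13, adjusted p = 0.0489) and with MMS and its DMSO libraries only (1.19, adjusted p = 0.03). The 2 MDA-MB231 DMSO libraries held 29 and 61 KRT17 reads and differed by 1.39 on the log2 scale, more than the 1.26 between MMS and its own DMSO library. KRT17 shares 17.4% of its windows with other genes, mostly its pseudogenes KRT17P1 and KRT17P2, and its coding sequence is 85.2% identical to KRT14 and 80.9% to KRT16. The 120 coding bases where KRT17 and KRT16 are most alike differ at 7 bases (capitals), and are shown because reads of the 2 genes are hardest to tell apart there.
KRT17, 248 to 367: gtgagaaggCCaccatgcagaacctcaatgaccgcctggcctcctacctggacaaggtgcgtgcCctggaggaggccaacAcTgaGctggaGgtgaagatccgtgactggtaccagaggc
KRT16, 347 to 466: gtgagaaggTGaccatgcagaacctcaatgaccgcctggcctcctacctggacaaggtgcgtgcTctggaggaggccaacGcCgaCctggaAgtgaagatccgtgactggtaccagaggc

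KRT19, a type I keratin of ductal epithelium, showed the reverse distribution. U2OS had 4 reads under DMSO, 2 under doxorubicin, 1 under etoposide, 6 under MMS and 8 under paclitaxel, so no drug ratio can be read in that line. In MDA-MB231, KRT19 was at 167 CPM under DMSO, 65.3 under doxorubicin, 70.5 under etoposide and 182 under paclitaxel, and at 132 CPM in the second DMSO library against 110 under MMS. Doxorubicin and etoposide were lower than DMSO in MDA-MB231 by 2.56-fold and 2.37-fold, and MMS and paclitaxel differed from their DMSO library by less than the 0.34 (log2) between the 2 DMSO libraries. The doxorubicin call (-1.36 ± 0.28, adjusted p = 0.00504) rests on MDA-MB231: it was lost without the first MDA-MB231 DMSO library (adjusted p = 0.135) or the MDA-MB231 doxorubicin library (adjusted p = 0.274). Doxorubicin was below MMS for KRT19 by 1.16 on the log2 scale (-1.16 ± 0.37, adjusted p = 0.0332); it was not called with DESeq2 (adjusted p = 0.114), with a block for line alone (0.0547) or without any of 7 libraries: U2OS DMSO (0.0518), U2OS doxorubicin (0.0504), U2OS MMS (0.131), MDA-MB231 doxorubicin (0.389), MDA-MB231 MMS (0.14), or the first (0.163) or second (0.133) MDA-MB231 DMSO.

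KRT15, a type I keratin of basal epithelial cells, was low in both lines. It lay at 8.24 CPM under DMSO in U2OS, 4.83 under doxorubicin, 4.16 under etoposide, 5.34 under MMS and 10.5 under paclitaxel. In MDA-MB231, KRT15 lay at 4.17 CPM under DMSO, 3.41 under doxorubicin, 4.38 under etoposide and 4.58 under paclitaxel, and at 2.56 CPM in the second DMSO library against 1.41 under MMS. In U2OS it was lower with all 3 DNA-damaging drugs, while in MDA-MB231 the counting interval of the log2 ratio included 0 under doxorubicin (-0.74 to 0.16), etoposide (-0.31 to 0.45) and paclitaxel (-0.25 to 0.52). It did not include 0 with MMS in MDA-MB231 (log2 ratio -0.68, interval -1.56 to -0.18), which was lower as in U2OS. No drug comparison called KRT15.

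Set side by side within a line, the etoposide ratios were lowest for KRT7 (-3.62), KRT81 (-3.28) and KRT80 (-3.17) in U2OS and for KRT80 (-3.41), KRT7 (-2.84) and KRT86 (-1.81) in MDA-MB231. Of the 7 keratins with at least 5 CPM in either library in U2OS, 6 were 2-fold or more lower with etoposide, where 7.5% of all such genes were and 6.11% were that much higher; KRT15 (log2 ratio -0.91) was not. In MDA-MB231 it was also 6 of 7, where 11.1% of all such genes were and 8.62% were higher, and KRT8 (-0.59, counting interval -0.65 to -0.54) was the exception. Over both lines KRT8 lay just inside 2-fold lower at -1.08 ± 0.23, with KRT17 (-0.75 ± 0.59) and KRT15 (-0.48 ± 0.37) outside. Leaving out the U2OS etoposide library turned KRT17 to 0.75 and brought KRT15 to 0.00, moved KRT8 to -0.65 and left KRT81 at -1.36, against -3.14 for KRT81 without the MDA-MB231 etoposide library. The median over the 9 genes was -1.68, and 0.02 over all genes tested. Because the genes were picked on etoposide, these shares and medians describe the choice and are not results.

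**Figure D4:**
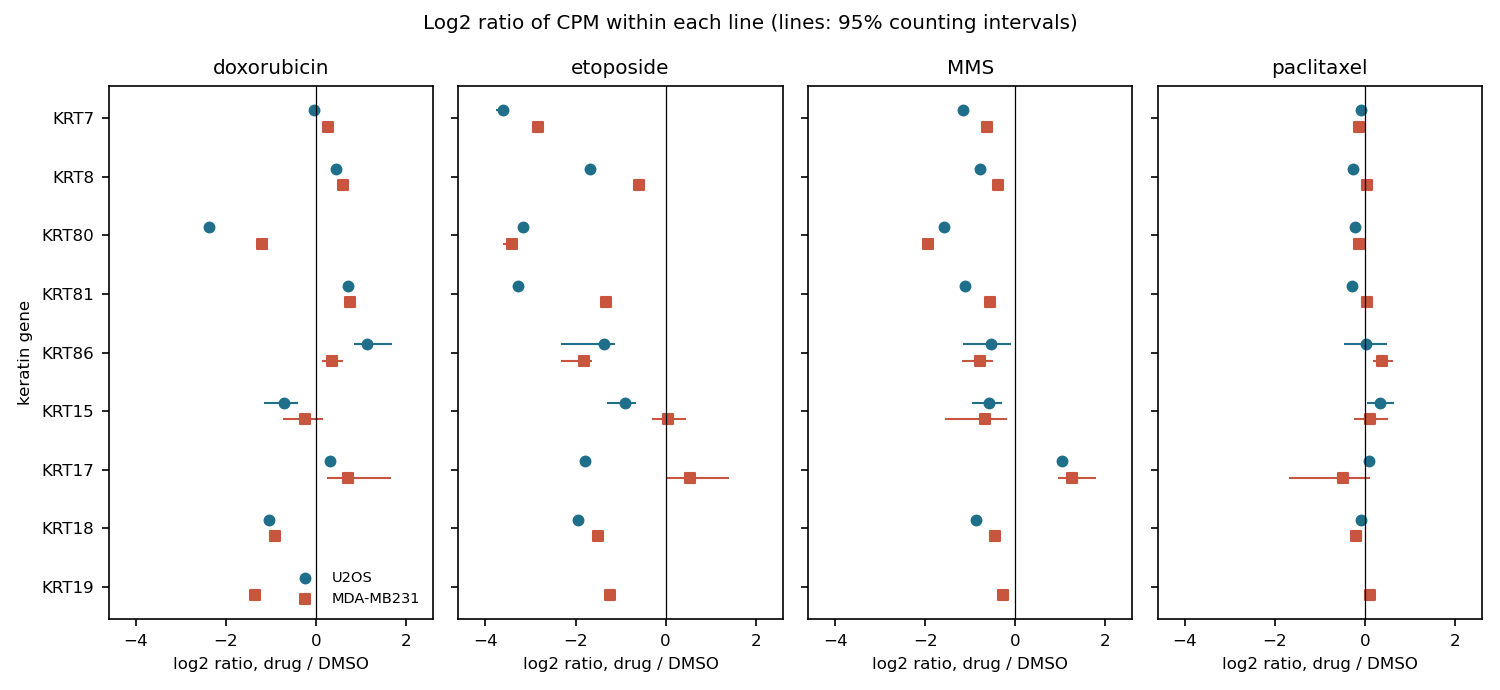
Log2 ratio of CPM, drug over the DMSO library of the same line and title form with 0.5 CPM added (horizontal axis), for each keratin gene (vertical axis), 1 panel per drug, circles U2OS and squares MDA-MB231. Thin lines are exact 95% counting intervals of the ratio without the added 0.5, ratios with 10 reads or fewer in a library (KRT19 in U2OS) are not drawn, and KRT17 under etoposide lies at -1.79 in U2OS and 0.53 in MDA-MB231.

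The other drugs gave smaller counts of 2-fold ratios. KRT86 in U2OS with doxorubicin, KRT17 in MDA-MB231 with MMS and KRT86 in MDA-MB231 with etoposide reached 5 CPM only in the library where they were high. So did KRT15 in U2OS, at 8.24 CPM under DMSO against 4.83 with doxorubicin and 4.16 with etoposide. The place of these genes in the 2-fold counts, also those for etoposide, follows from that limit. In U2OS with doxorubicin, KRT18 and KRT80 were 2-fold or more lower and KRT86 higher, of 8 keratins at that level, where 18.3% of genes were lower and 14.3% higher. With doxorubicin in MDA-MB231, KRT19 and KRT80 were lower, of 7, where 18.8% of genes were lower and 8.19% higher. MMS in U2OS had KRT7, KRT80 and KRT81 lower and KRT17 higher, of 7, where 11.2% of genes were lower and 7.32% higher. MMS in MDA-MB231 had KRT80 lower and KRT17 higher, of 8, where 3.4% of genes were lower and 2.71% higher. Paclitaxel moved 0 keratins by 2-fold in either line. That much lower were 0.00888% of genes in U2OS and 0.00923% in MDA-MB231, and that much higher 0.0799% and 0.462%.

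Summed over the 9 genes, keratin reads made up 0.282% of gene counts in U2OS with DMSO (exact 95% interval 0.28 to 0.284%), 0.245% under doxorubicin, 0.0649% under etoposide, 0.229% under MMS and 0.261% under paclitaxel. In MDA-MB231 the share was 0.116% under DMSO, 0.107% under doxorubicin, 0.0432% under etoposide and 0.114% under paclitaxel, and 0.126% in the second DMSO library against 0.0838% under MMS. The etoposide libraries hold the lowest share in each line. The make-up of the pool also differed between drugs. KRT17 was 18.6% of U2OS keratin reads with DMSO and 49.4% under MMS, and KRT81 was 22% under DMSO, 33.7% under doxorubicin and 11.1% under etoposide. In MDA-MB231, KRT7 was 23.1% of keratin reads with DMSO, 27.5% under doxorubicin and 9.07% under etoposide. Summed CPM per kb of type II over type I keratins was 1.41 in U2OS with DMSO, 1.99 under doxorubicin, 0.886 under etoposide, 0.504 under MMS and 1.19 under paclitaxel. In MDA-MB231 it was 1.5 under DMSO, 4.24 under doxorubicin, 1.37 under etoposide and 1.52 under paclitaxel, and 1.77 in the second DMSO library against 1.5 under MMS. This ratio was highest with doxorubicin in both lines and lowest with MMS in U2OS.

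**Figure D5:**
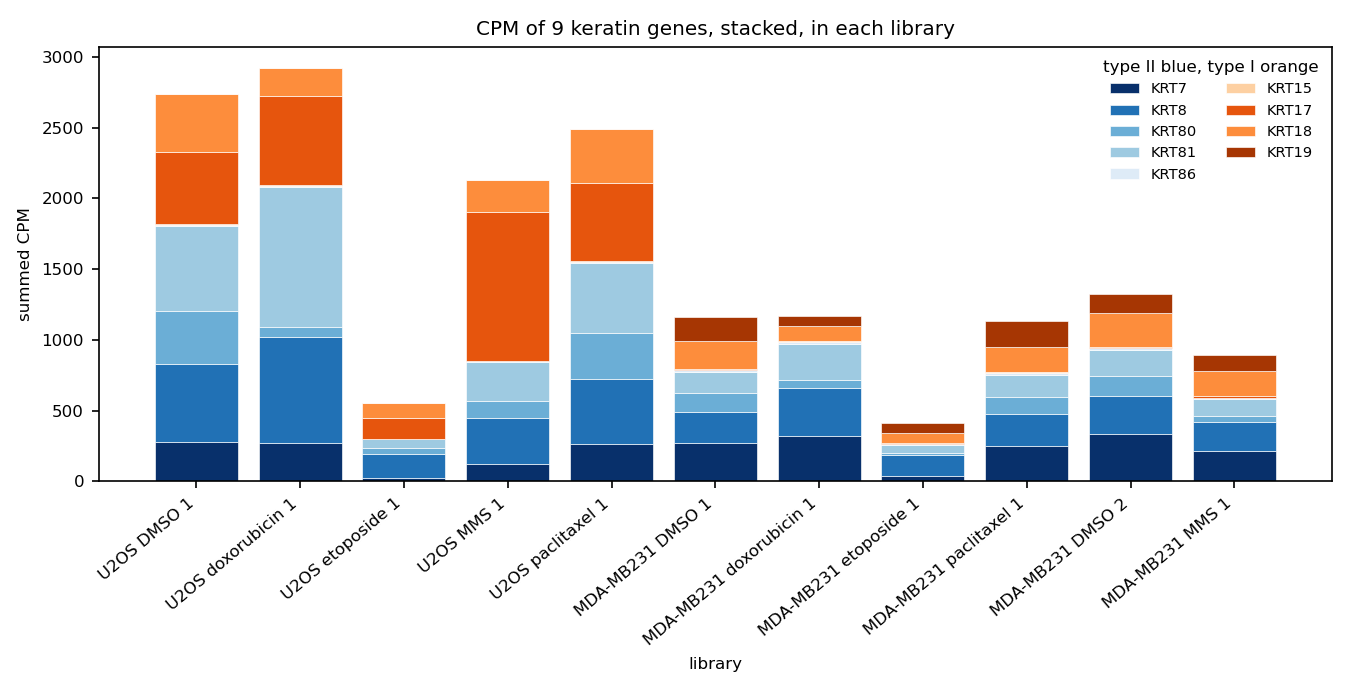
Stacked CPM of the 9 keratin genes (vertical axis) in each of the 11 libraries (horizontal axis), type II genes in blue and type I genes in orange. The stack reaches 2740 CPM in U2OS with DMSO and 554 under etoposide, and 1160 and 408 CPM in MDA-MB231; KRT17 fills much of the U2OS MMS bar.

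Between the lines, with the drug terms held, all 9 keratins differed in the edgeR fit, where 61% of all genes tested did, 33.1% higher and 27.9% lower in U2OS. KRT17 was 7.47 ± 0.45 higher in U2OS on the log2 scale (adjusted p = 1.9e-06) and KRT19 -9.28 ± 0.22, that is lower in U2OS (adjusted p = 2.16e-08). Their ranges do not overlap: KRT17 lay between 147 and 1050 CPM in U2OS and between 0.669 and 9.84 CPM in MDA-MB231, and KRT19 between 0.027 and 0.344 CPM and between 65.3 and 182 CPM. KRT80 (1.40 ± 0.20), KRT81 (1.35 ± 0.26), KRT15 (1.19 ± 0.25), KRT8 (0.83 ± 0.15) and KRT18 (0.70 ± 0.11) were also higher in U2OS, and KRT86 (-1.40 ± 0.23) lower, with CPM ranges over all libraries that overlap between the lines. KRT7 was lower in U2OS by the smallest amount (-0.39 ± 0.14, adjusted p = 0.0326), and its call was lost in 7 of 19 alternatives: with total count scaling (adjusted p = 0.064), with a block for line alone (0.0676), with the DMSO libraries only (-0.10, adjusted p = 0.714), and without the U2OS MMS or MDA-MB231 MMS (0.195 each), U2OS etoposide (0.0595) or MDA-MB231 etoposide (0.0584) library. The other 8 calls held in all 19.

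Whether the lines responded differently was tested with a term for treated U2OS cells in the 9 libraries without etoposide. It called 0 of 9 keratins and 0% of the 16329 genes tested in edgeR; 0 keratins and 167 genes had an unadjusted p under 0.05, and DESeq2 and limma-voom called 0 of 9. The fitted values ran from -0.33 ± 0.26 for KRT81 to 0.50 ± 0.60 for KRT19. With 2 residual degrees of freedom, this does not show that the lines responded alike.

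Likeness over the 8 drug ratios was measured for KRT7, KRT8, KRT18, KRT80 and KRT81. The other keratins did not reach 10 CPM in both lines and were not compared. The most alike genes were found by the root mean square difference of log2 ratios, among 8375 genes with 10 CPM or more in each line. This is a description over 8 ratios that share DMSO libraries and include the etoposide ratio of each line, on which the keratins were picked. For KRT7 (-3.62 in U2OS and -2.84 in MDA-MB231), KRT18, KRT80 and KRT81 the etoposide ratios were the furthest from 0. The nearest genes therefore depend in large part on that choice and are not a result. KRT7 and KRT81 had ANXA3, an annexin gene, as their nearest gene (0.52 and 0.44), with IL7R, an interleukin receptor gene, next for KRT7 (0.53) and FLJ22447 for KRT81 (0.46). Nearest to KRT8 were HCFC1R1 (0.16) and SNX17, a sorting nexin gene (0.20). LIMA1 and PDLIM2, which encode LIM-domain proteins of the actin cytoskeleton, were nearest to KRT18 (0.25 and 0.27). NRG1, which encodes the growth factor neuregulin 1 (0.57), and FAM196B (0.72) were nearest to KRT80. Among the keratins compared, KRT7 and KRT81 were closest (0.64), and KRT80 was far from its nearest, KRT18 (1.10). The median difference from a compared keratin over all candidate genes ran from 0.93 for KRT8 to 2.12 for KRT80.

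Of the 46 other keratin genes, 38 stayed below 1 CPM in every library. KRT75, a type II keratin of hair follicles, had 907 reads in U2OS with DMSO, 807 under doxorubicin, 110 under etoposide, 423 under MMS and 1138 under paclitaxel, and at most 6 in any MDA-MB231 library. Its etoposide change was -3.75 ± 0.76 (adjusted p = 0.0181), not called with DESeq2 (adjusted p = 0.206) or without the U2OS DMSO (0.688), U2OS etoposide (0.677), first MDA-MB231 DMSO (0.0736) or MDA-MB231 etoposide (0.0578) library. KRT6A and KRT6B, stratified-epithelium keratins, were likewise detected mainly in U2OS, KRT6A with 33 reads under DMSO, 164 under doxorubicin, 10 under etoposide, 6 under MMS and 42 under paclitaxel. KRT6A rose with doxorubicin (2.24 ± 0.64, adjusted p = 0.0237), a call lost with DESeq2 (adjusted p = 0.0964) and without the U2OS DMSO (0.242), U2OS doxorubicin (0.588) or first MDA-MB231 DMSO (0.0612) library, and with doxorubicin and its DMSO libraries only (0.0512). KRT10, of differentiated epidermis, ran from 11.6 CPM under doxorubicin in U2OS to 55.1 CPM under etoposide in MDA-MB231 and was not called with any drug. KRT14, KRT16, KRT34 and KRT85 were not called with any drug either.

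Genes that anchor or accompany keratin filaments were counted in lists chosen with these data known. Of 16 desmosome and hemidesmosome genes tested, 3 rose and 3 fell with doxorubicin, where 42.5% of all genes were called, and 0 rose and 4 fell with MMS, where 10.4% were, with list medians of 0.50 and -0.72 beside 0.07 and -0.04 for all genes. CD151, a hemidesmosomal tetraspanin gene, rose with doxorubicin by 1.07 ± 0.14 (adjusted p = 0.000771) and PERP, a desmosomal membrane protein gene, by 1.02 ± 0.22 (adjusted p = 0.00586). DST, which encodes the plakin dystonin, fell (-0.95 ± 0.23, adjusted p = 0.0108; 0.0606 without the U2OS DMSO and 0.0549 without the first MDA-MB231 DMSO library). With etoposide 1 of the 16 rose and 6 fell, where 17.2% of all genes were called, 7.97% higher and 9.23% lower. The plakophilin gene PKP3 fell with etoposide (-1.72 ± 0.32, adjusted p = 0.0126), a call lost without the U2OS DMSO (0.068), first MDA-MB231 DMSO (0.0878) or MDA-MB231 etoposide (0.102) library. The integrin beta 4 gene ITGB4 fell too (-1.56 ± 0.23, adjusted p = 0.00653), a call lost with a block for line alone (0.0618) and without the first MDA-MB231 DMSO (0.0722) or MDA-MB231 etoposide (0.0581) library. ITGA6, the hemidesmosomal integrin alpha 6 gene, was at 467 CPM in U2OS with DMSO and 73 under MMS, and fell with MMS by 1.86 on the log2 scale (SE 0.38, adjusted p = 0.0212); without the U2OS DMSO library (adjusted p = 0.0645) or the U2OS MMS library (-0.90, adjusted p = 0.378) it was not called, nor with a block for line alone (0.0603) or MMS and its DMSO libraries only (0.14). Without the U2OS MMS library 0 genes of any kind were called with MMS. Of 13 genes of keratin linkers and partners, 1 rose and 3 fell with doxorubicin: TCHP, which encodes the keratin-binding protein trichoplein (-3.03 ± 0.20, adjusted p = 0.000119), EVPL, the gene of the plakin envoplakin (-2.02 ± 0.27, adjusted p = 0.00074), and PNN, which encodes pinin (-1.54 ± 0.21, adjusted p = 0.000761). With etoposide 3 of the 13 fell; the most changed was HSPB1, a small heat shock protein gene (-1.31 ± 0.18, adjusted p = 0.00585).

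Among 12 other intermediate filament genes, 0 rose and 1 fell with doxorubicin, LMNB1, which encodes lamin B1 (-2.44 ± 0.31, adjusted p = 0.000591). Of all genes tested, 21.9% were called higher and 20.6% lower with doxorubicin, and 7.97% and 9.23% with etoposide. With etoposide 4 of the 12 fell and 0 rose, among them VIM, the vimentin gene (-1.65 ± 0.24, adjusted p = 0.0065; 0.0626 without the first MDA-MB231 DMSO and 0.0682 without the MDA-MB231 etoposide library). Of 23 genes of epithelial junctions and identity, 5 rose and 2 fell with doxorubicin, where 42.5% of all genes were called. SPINT1, which encodes an epithelial serine protease inhibitor, rose by 1.85 ± 0.45 (adjusted p = 0.0103) and EPCAM, an epithelial adhesion molecule gene, by 1.11 ± 0.26 (adjusted p = 0.0095); without the first MDA-MB231 DMSO library neither was called (adjusted p = 0.0626 and 0.0763), nor EPCAM with doxorubicin and its DMSO libraries only (0.0551). The claudin gene CLDN4 fell by 3.65 on the log2 scale (SE 0.31, adjusted p = 0.000164) and the tight junction scaffold gene TJP1 by 1.19 (SE 0.16, adjusted p = 0.000785). With etoposide 0 of the 23 rose and 3 fell, where 7.97% of all genes were called higher and 9.23% lower. Of 25 epithelial transcription factor genes, 3 rose and 8 fell with doxorubicin, a share near the 42.5% of all genes called. Among those that fell were the AP-1 genes FOSL1 (-2.85 ± 0.27, adjusted p = 0.000233) and JUND (-2.2 ± 0.26, adjusted p = 0.000503), and among those that rose the grainyhead gene GRHL1 (2.45 ± 0.40, adjusted p = 0.00171). Of 9 genes of factors that drive epithelial-mesenchymal transition, SNAI1 rose (3.70 ± 0.73, adjusted p = 0.00396) and SNAI2 fell (-2.84 ± 0.36, adjusted p = 0.000646) with doxorubicin. The other 7 were not called, where 42.5% of all genes were. SNAI1 was at 10.4 CPM under DMSO and 44 under doxorubicin in U2OS, and at 1.06 and 46.7 CPM in MDA-MB231. Its change was 2.26 without the MDA-MB231 doxorubicin and 4.91 without the U2OS doxorubicin library.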

How the data were processed

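For each library the authors deposited a table that pairs gene symbols with raw read counts. The sources used here do not give strand, read length or RNA selection, and overlapping antisense reads cannot be told apart. Reads were processed with CASAVA 1.8.2, TopHat2 2.0.8b and HTSeq (builds hg19 and mm9 named; hg19 was taken for these human lines), per the submitters' processing notes. Reads aligned to several places (28.4% to 37.5% of reads tabulated), outside genes (7.16% to 9.7%) or ambiguous (1.03% to 1.19%) stand in closing lines of each table, which stayed out of library sizes and tests.

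A single fit held all 11 libraries: edgeR 4.0.16 under R 4.3.3, with TMM scaling, filterByExpr (15888 genes kept) and the robust quasi-likelihood test, leaving 4 residual degrees of freedom and a biological coefficient of variation of 0.213. Each drug had its own term, beside 3 levels for U2OS and for the MDA-MB231 libraries titled without a time or with 8hr. Adjusted p-values are Benjamini-Hochberg over all genes, two-sided. SE is the log2 fold change over the square root of F. The treated U2OS term was fitted to 9 libraries (16329 genes). Ratios within a line add 0.5 to each TMM-scaled CPM, have no replicate, and count at 2-fold where the larger CPM is at least 5; Clopper-Pearson 95% intervals cover counting error only. Per-kb levels and sequences use GENCODE 29 transcripts (GRCh38), so no coordinates are given. Scripts were tested on simulated data.

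The genes named are the 9 keratins, other keratins reaching 1 CPM, up to 4 called genes per list with 5 CPM or more, and the 2 nearest genes by likeness. The members, lists and tests were chosen with earlier results of these data known. Alternatives were DESeq2 1.42.0, limma-voom (limma 3.58.1), other scalings and filters, a block for line alone, smaller sets of libraries and leaving out each library.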

Additional observations from a re-analysis of the deposited data

Results flagged for a closer look

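KRT17 went in opposite directions with etoposide in the 2 lines. Its log2 ratio to DMSO was -1.79 in U2OS (5429 reads against 9956) and 0.53 in MDA-MB231 (58 reads against 29). Each line has 1 etoposide library, so the difference between the lines was not tested. The 2 MDA-MB231 DMSO libraries differed by 1.39 for KRT17, more than the MDA-MB231 etoposide ratio.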

How the results depend on the processing

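Of the counts of keratins called, those for the lines (9, 8 to 9 on leaving out a library), paclitaxel (0), the treated U2OS term (0) and etoposide 2-fold or more lower (7, 6 to 8 on leaving out a library) stayed within 1.5 times in every alternative run, as did the 23 ratios within a line past 2-fold (22 to 24). On leaving out 1 library, the count with doxorubicin (3) ran from 2 to 5, with MMS (3) from 0 to 6, for doxorubicin against MMS (5) from 0 to 5, for doxorubicin against paclitaxel (3) from 2 to 5 and for MMS against paclitaxel (1) from 0 to 1. The count of 5 with doxorubicin, and of 6 with MMS, came without the U2OS etoposide or MDA-MB231 etoposide library. No keratin was called with MMS without the U2OS DMSO, U2OS MMS, second MDA-MB231 DMSO or MDA-MB231 MMS library. A block for line alone gave 1 with MMS, and for MMS against paclitaxel DESeq2 and limma-voom gave 2 and total count scaling 0. Log2 fold changes turned sign for KRT7 under total count scaling (-0.06 with doxorubicin, -0.02 against paclitaxel), KRT17 with paclitaxel (0.05 with limma-voom, 0.06 with the drug and its DMSO libraries only), KRT15 for doxorubicin against MMS (-0.21 with total counts, -0.04 with no filter) and, in the treated U2OS term, KRT15 (-0.01 with total counts, -0.08 with a block for line alone) and KRT17 (0.26 with that block). On leaving out 1 library, signs turned with paclitaxel for KRT7 (-0.28 to 0.15), KRT8 (-0.26 to 0.12), KRT15 (-0.19 to 0.51), KRT17 (-1.53 to 0.42), KRT18 (-0.27 to 0.06), KRT81 (-0.34 to 0.22) and KRT86 (-0.2 to 0.57), with MMS for KRT19 (-0.27 to 0.11), and with etoposide for KRT17 (-1.74 to 0.75), while KRT15 reached 0 (-0.99 to 0). For doxorubicin against MMS they turned for KRT15 (-0.16 to 0.32), KRT80 (-0.8 to 0.62), DSC3 (-2.24 to 2.16) and NEFL (-0.07 to 1.89), and against paclitaxel for KRT7 (-0.01 to 0.42). In the treated U2OS term they turned for KRT15 (-0.15 to 0.23), KRT17 (-0.47 to 0.11), KRT80 (-0.64 to 0.35) and KRT86 (-0.09 to 0.55). The cause was not tested. Total count scaling moved the median of all genes with doxorubicin from 0.07 to -0.15 and with etoposide from 0.02 to 0.15. KRT19 in U2OS (1 to 8 reads) and KRT17 in MDA-MB231 (19 to 245 reads) are limited by depth.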
